A study of Mus musculus with 18 samples.

Results

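The genes described here are 9 of the 46603 genes in each expression table of mouse lung organoids and tumoroids: the coactivators of the Hippo pathway Yap1 and Wwtr1 (which encodes TAZ), the YAP/TAZ target genes Ccn1, Ccn2, Ankrd1, Amotl2 and Ajuba, and the feedback targets of TGF-β signalling Pmepa1 and Smad7. They were found by gene identifier in all 18 libraries, and they were chosen on measured values: Ccn2 moved most of its gene lists when Ad-Cre was set against Ad-GFP in distal lung organoids. The values of that contrast are therefore given below as a description, with no test. All 9 members passed the filter on low counts in every comparison.

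In the Hippo pathway, the LATS kinases phosphorylate YAP and TAZ and hold them in the cytoplasm; unphosphorylated YAP and TAZ enter the nucleus, where they bind TEAD factors and activate genes such as Ccn1, Ccn2 and Ankrd1. TGF-β ligands act through paired serine/threonine kinase receptors that phosphorylate SMAD proteins, and SMADs in turn induce the inhibitors Smad7 and Pmepa1, while Ccn2 responds to both pathways. In the lung, these pathways are known for their part in airway basal cell behaviour, in the differentiation of alveolar cells after injury, and in the matrix production of fibroblasts.

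The cells carried a conditional human EGFR T790M/L858R allele, silent behind a loxP-flanked stop cassette until Cre recombinase removes it. By the study's account it sits in the Col1a1 locus, a gene that also serves below as a fibroblast marker. Sorted epithelial cells were infected in culture with adenovirus encoding Cre (Ad-Cre) or, as control, GFP (Ad-GFP). The question was how the oncogene acts in cells of different origin, before and after growth as tumours. Organoids were grown in Matrigel together with lung mesenchymal support cells (named mesenchymal endothelial cells in the sample descriptions), so each library could hold RNA of those cells too. Ad-Cre organoids were placed into the airways of immunocompromised Nude (Foxn1 Nu/Nu) mice, which lack most T cells, and the tumours that grew were cultured again as tumoroids.

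Of the 10 organoid libraries, 4 came from the trachea (NGFR-negative, the sort used for club cells, and NGFR-positive, the sort used for basal cells, each with Ad-GFP and with Ad-Cre) and 6 from the distal lung. The distal libraries were Sca1-negative alveolar type II (AT2) cells with either virus, Sca1-positive bronchioalveolar stem cells (BASC) of mixed morphology with either virus, and the alveolar and bronchiolar BASC subcultures with Ad-Cre. Every organoid condition was 1 library. By the study's methods, each sort was split between the viruses and the BASC cultures were separated by their looks during passage, so the Ad-Cre and Ad-GFP libraries of a population, and the BASC libraries, share sorted cells, and the fits below treat them as separate samples. Of the 8 tumoroid libraries, 7 came from transplants (3 AT2, 3 mixed BASC, 1 bronchiolar BASC) and 1 from a tumour that arose in place after Ad-Cre was given to the lung of a mouse with the allele (autochthonous). The study's methods name adult mice, males and females, for the autochthonous tumours, while strain, and age and sex library by library, are not given in the sources used here. Every tumoroid was of Ad-Cre cells, so no tumoroid without Cre was compared. Total expected counts ran from 27772660 to 97191624 (median 55182026) in organoids and from 15327265 to 23355938 (median 22464438) in tumoroids. Organoids were sequenced with TruSeq libraries on HiSeq and tumoroids by BGI on DNBSEQ, so platform and depth cannot be told apart from the change of state. Numbers read as sequencing lanes from the names of the organoid tables, which no label states, were 6 for all tracheal and 7 or 8 for all distal libraries.

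Several libraries stood apart from their labels. The tracheal NGFR-negative organoids had Ngfr at 53.1 and 50.2 TPM (transcript abundance scaled for length and library size), as high as the 48.3 and 46.6 of the NGFR-positive ones, and the basal keratin gene Krt5 was at 2063 and 1899 against 1694 and 1549 TPM. The mixed BASC organoids were high in the airway markers Krt5 (1357 and 808 TPM) and Sox2 (169.6 and 131 TPM), with the AT2 marker Sftpc at 228 and 1525 TPM against 60996 in the alveolar BASC organoids. By contrast, the mixed BASC tumoroids had Sftpc at 53064, 21223 and 42717 TPM and Krt5 below 1 TPM in each. AT2 tumoroid 3 was low in the epithelial gene Epcam, at 30.8 TPM against 127 and 246 in AT2 tumoroids 1 and 2, and high in the collagen gene Col1a1, at 1348 against 99.5 and 74.1 TPM. The AT2 tumoroids carry a sorting label (NGFR-negative) that belongs to the tracheal sort, and Sftpc was at 123104, 81107 and 23662 TPM in them. Some tumoroids share a number in their names (AT2 tumoroids 2 and 3, and mixed BASC tumoroids 2 and 3 with the bronchiolar tumoroid), and whether these came from 1 mouse is not given in the sources used here; p-values measure only the spread between these samples, which may be technical.

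Airway organoids (the 4 tracheal libraries and the bronchiolar BASC Ad-Cre library, n = 5) were set against alveolar organoids (AT2 with either virus and alveolar BASC with Ad-Cre, n = 3). Here 5 of 9 members passed an adjusted p of 0.05 with edgeR's quasi-likelihood test: Yap1, Ankrd1, Ajuba and Pmepa1 were higher and Wwtr1 was lower in airway organoids. Among all 18362 genes tested, 58.4% passed (5600 higher and 5125 lower), so the members' share was near that of all genes and is no result about the members as a set. With limma on log2(TPM + 1), the split was 6741 higher and 4079 lower around a median of 0.16 over all genes. Transplant tumoroids (n = 7) were set against the distal Ad-Cre organoids (n = 4). In edgeR, 0 of 9 members passed there (1 at an unadjusted p under 0.05; 1 with DESeq2 and 1 with limma, Ccn2 in each), against 19.6% of 16139 genes. AT2 against mixed BASC tumoroids (n = 3 each) gave 0 of 9 members in edgeR (0 at an unadjusted p under 0.05; 0 with DESeq2 and 0 with limma), against 0% of 15470 genes (144 at an unadjusted p under 0.05; 7 genes with DESeq2 and 0 with limma). In the tracheal Ad-Cre against Ad-GFP pairs (n = 2 each, population as a block), which were not used to choose the members, 0 of 9 passed in edgeR (3 at an unadjusted p under 0.05; 0 with DESeq2 and 0 with limma), against 0% of 17234 genes (411 at an unadjusted p under 0.05; 11 genes with DESeq2 and 2 with limma). With so few libraries, this does not show that the members were alike with the 2 viruses in the trachea. The comparisons share libraries and are not independent of each other, and the distal Ad-Cre organoids are among the libraries whose Ccn2 values chose the members, so nothing is read from the calls of Ccn2 in the comparisons that use them.

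By abundance, set as TPM because it accounts for transcript length, the median over 18 libraries gave the order Ccn2 (230.3), Ccn1 (213), Pmepa1 (83.8), Amotl2 (75.9), Yap1 (62.7), Wwtr1 (58.6), Ajuba (31.3), Smad7 (30.9) and Ankrd1 (14.98). The order pools organoids and tumoroids: the median of Ccn2 was 332 TPM in organoids but 48.6 in tumoroids, where those of Ccn1 (184), Amotl2 (76.4), Wwtr1 (58.6) and Yap1 (54.6) lay above it. Only Ccn1 was above its next neighbour, Pmepa1, in all 18 libraries. Every other step of the order was reversed in some library: Ccn2 was above Ccn1 in 9 libraries, Pmepa1 above Amotl2 in 11, Amotl2 above Yap1 in 14, Yap1 above Wwtr1 in 9, Wwtr1 above Ajuba in 14, Ajuba above Smad7 in 9 and Smad7 above Ankrd1 in 12. The members differed in how far they ranged. The highest TPM was 105 times the lowest for Ankrd1, 77.9 times for Ccn2, 9.17 for Pmepa1, 8.24 for Ccn1 and 6.68 for Ajuba. It was 2.23 times for Amotl2, 2.18 for Yap1, 2.17 for Wwtr1 and 1.997 for Smad7, so these 4 stayed within a narrow band in libraries where Ankrd1 and Ccn2 spread widely. Ccn2, Ccn1, Pmepa1, Yap1, Smad7 and Ankrd1 had their highest TPM in the bronchiolar BASC Ad-Cre organoids, although Smad7 on the CPM scale was highest in the bronchiolar tumoroid. All further levels are CPM (counts scaled for library size and composition), which compare 1 gene between libraries.

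Yap1 (ENSMUSG00000053110, chr9:7931999-8004596, minus strand), the coactivator on which the LATS kinases act, was at 179.9 CPM (Ad-GFP) and 184 (Ad-Cre) in the NGFR-negative and 190.3 and 195 in the NGFR-positive tracheal organoids. The distal organoids had 145 CPM (Ad-GFP) and 139 (Ad-Cre) in AT2 organoids, 163 and 192 in mixed BASC organoids, 139 in alveolar BASC Ad-Cre organoids and 204 in bronchiolar BASC Ad-Cre organoids. Yap1 was thus higher in each of the 5 airway libraries than in each of the 3 alveolar ones, and the ranges did not overlap. The fitted log2 fold change, airway over alveolar, was 0.39 (SE 0.07, adjusted p = 0.00126 with edgeR), and it passed in all 18 alternative fits (adjusted p 4.45e-08 to 0.0307). Here and below, 2 of the 18 alternatives of this comparison are the same fit, since leaving out the bronchiolar BASC library and taking tracheal organoids alone as the airway side come to the same samples. Transplant tumoroids had 115 to 182 CPM (median 134), overlapping the distal Ad-Cre organoids, and the log2 fold change was -0.24 (SE 0.16, adjusted p = 0.309). The autochthonous tumoroid had 139.8 CPM. The matched Ad-Cre minus Ad-GFP differences in log2 CPM were small, 0.03, 0.04, -0.06 and 0.24 in the NGFR-negative, NGFR-positive, AT2 and mixed BASC organoids, a mean of 0.06 ± 0.13 (SD, n = 4 populations).

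Wwtr1 (ENSMUSG00000027803, chr3:57455649-57575910, minus strand) encodes TAZ, the paralogue of YAP, and took the opposite course between airway and alveolar cultures. It was at 147 CPM (Ad-GFP) and 148 (Ad-Cre) in the NGFR-negative and 142 and 138 in the NGFR-positive tracheal organoids. Distal organoid levels were 191 CPM (Ad-GFP) and 191 (Ad-Cre) in AT2 organoids, 138 and 172 in mixed BASC organoids, 210.2 in alveolar BASC Ad-Cre organoids and 204 in bronchiolar BASC Ad-Cre organoids. The tracheal libraries lay below the alveolar ones, but the bronchiolar BASC organoids lay among the alveolar values, so the airway and alveolar ranges overlapped. The fitted log2 fold change was -0.38 (SE 0.13, adjusted p = 0.0304). This call held in 8 of 18 alternative fits, the repeated fit counted in both numbers (adjusted p 0.000278 to 0.222). Without the bronchiolar BASC library it was -0.52 (adjusted p = 0.000278), while it did not pass without any 1 of the other 7 libraries, with adjusted p of 0.0622 and 0.0635 when the NGFR-negative Ad-GFP or Ad-Cre, 0.0685 and 0.0672 when the NGFR-positive Ad-GFP or Ad-Cre, 0.0625 and 0.0576 when the AT2 Ad-GFP or Ad-Cre and 0.103 when the alveolar BASC library was left out. With both NGFR-negative tracheal libraries left out, an alternative chosen after seeing the data, adjusted p was 0.136. Transplant tumoroids had 133 to 224 CPM (median 169), with a log2 fold change against distal Ad-Cre organoids of -0.15 (SE 0.15, adjusted p = 0.521). The matched virus differences were 0.01, -0.04, -0.01 and 0.31 on the log2 scale, a mean of 0.07 ± 0.17 (SD, n = 4 populations). As a description of the levels, the ratio of Wwtr1 to Yap1 TPM was 0.6199 to 0.7096 (median 0.675) in the tracheal organoids, 1.13 to 1.32 (median 1.17) in the alveolar organoids and 0.855 to 1.29 (median 1.07) in the transplant tumoroids. The tracheal and alveolar ratios did not overlap. This ratio was looked at after the levels were seen and was not tested.

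Ccn2 (ENSMUSG00000019997, chr10:24595442-24598683, plus strand), a secreted matricellular protein formerly called connective tissue growth factor, was at 471 CPM (Ad-GFP) and 348 (Ad-Cre) in the NGFR-negative and 449.8 and 460.4 in the NGFR-positive tracheal organoids. Among distal organoids it was 173 CPM (Ad-GFP) and 458 (Ad-Cre) in AT2 organoids, 357 and 1215 in mixed BASC organoids, 295 in alveolar BASC Ad-Cre organoids and 1698 in bronchiolar BASC Ad-Cre organoids. Ccn2 was higher with Ad-Cre in AT2 and in mixed BASC organoids, whereas in the trachea the NGFR-negative pair differed in the other direction and the NGFR-positive pair was nearly level. The matched differences in log2 CPM were -0.44, 0.03, 1.40 and 1.77 in the NGFR-negative, NGFR-positive, AT2 and mixed BASC organoids, a mean of 0.69 ± 1.06 (SD, n = 4 populations), smaller than the spread between populations. The distal values of this contrast chose the members, and the contrast was not tested. The other comparisons of distal libraries use the same Ccn2 values on 1 or both sides, so for Ccn2 they are given below as levels and fold changes with no test. In the tracheal pairs the fitted log2 difference was -0.21 (SE 0.14, adjusted p = 0.9999 with edgeR). An antisense transcript, Gm15270, overlaps Ccn2 and reached 3.03 CPM at most, and how the counting treated strand is not given in the sources used here.

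Between airway and alveolar organoids Ccn2 overlapped: AT2 Ad-Cre organoids were within the tracheal range, and the bronchiolar BASC organoids stood far above the other airway libraries. On the log2 scale the fold change was 1.10 (SE 0.58), from 0.43 to 1.49 over 18 alternatives. In tumoroids Ccn2 was at 40.1, 56.3 and 21.6 CPM in AT2 tumoroids 1 to 3, 77.96, 41.2 and 83.97 in mixed BASC tumoroids 1 to 3, 642 in the bronchiolar BASC tumoroid and 127 in the autochthonous tumoroid. All 6 AT2 and mixed BASC tumoroids lay below every organoid library, and the bronchiolar tumoroid lay within the range of the distal Ad-Cre organoids. The log2 fold change, transplant tumoroids over distal Ad-Cre organoids, was -2.70 (SE 0.89), drawn in part from the values that chose the members. It was -4.03 without the bronchiolar tumoroid and -2.78 between AT2 and mixed BASC tumoroids and the AT2 and alveolar BASC Ad-Cre organoids. Over 21 alternatives it ran from -4.03 to -2.10. In these bulk libraries fewer cells of a type and less RNA per cell cannot be told apart. AT2 tumoroid 3 had the highest fibroblast marker sum of all 18 libraries (5444 TPM) and the lowest Ccn2, and the part of fibroblasts in Ccn2 was not tested.

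Ccn1 (ENSMUSG00000028195, chr3:145646976-145649981, minus strand), a second matricellular protein of the same family, was at 373 CPM (Ad-GFP) and 207 (Ad-Cre) in the NGFR-negative and 279 and 275 in the NGFR-positive tracheal organoids. The distal organoids had 195 CPM (Ad-GFP) and 214 (Ad-Cre) in AT2 organoids, 268 and 631 in mixed BASC organoids, 196 in alveolar BASC Ad-Cre organoids and 866 in bronchiolar BASC Ad-Cre organoids. As for Ccn2, the mixed and bronchiolar BASC Ad-Cre organoids were the highest, but AT2 organoids differed little between the viruses. The matched differences in log2 CPM were -0.85, -0.02, 0.13 and 1.24, a mean of 0.13 ± 0.86 (SD, n = 4 populations). Between airway and alveolar organoids the ranges overlapped, and the log2 fold change was 0.94 (SE 0.44, adjusted p = 0.09998). It was 0.43 (SE 0.18) without the bronchiolar BASC library. In tumoroids Ccn1 was at 146, 457 and 121 CPM in AT2 tumoroids 1 to 3, 102, 217 and 381 in mixed BASC tumoroids 1 to 3, 564 in the bronchiolar BASC tumoroid and 223 in the autochthonous tumoroid. Ccn1 lay within the organoid range (195 to 866 CPM) in AT2 tumoroid 2, mixed BASC tumoroids 2 and 3, the bronchiolar tumoroid and the autochthonous tumoroid. Ccn2 lay within its own organoid range only in the bronchiolar tumoroid. The log2 fold change of Ccn1 against distal Ad-Cre organoids was -0.69 (SE 0.56, adjusted p = 0.415). The ratio of Ccn2 to Ccn1 TPM was 0.751 to 1.81 (median 1.404) in the 10 organoid libraries and 0.103 to 0.962 (median 0.213) in the 8 tumoroid libraries. The ranges of this ratio overlapped through the bronchiolar tumoroid, and the ratio was looked at after the levels were seen and was not tested.

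**Figure D1:**
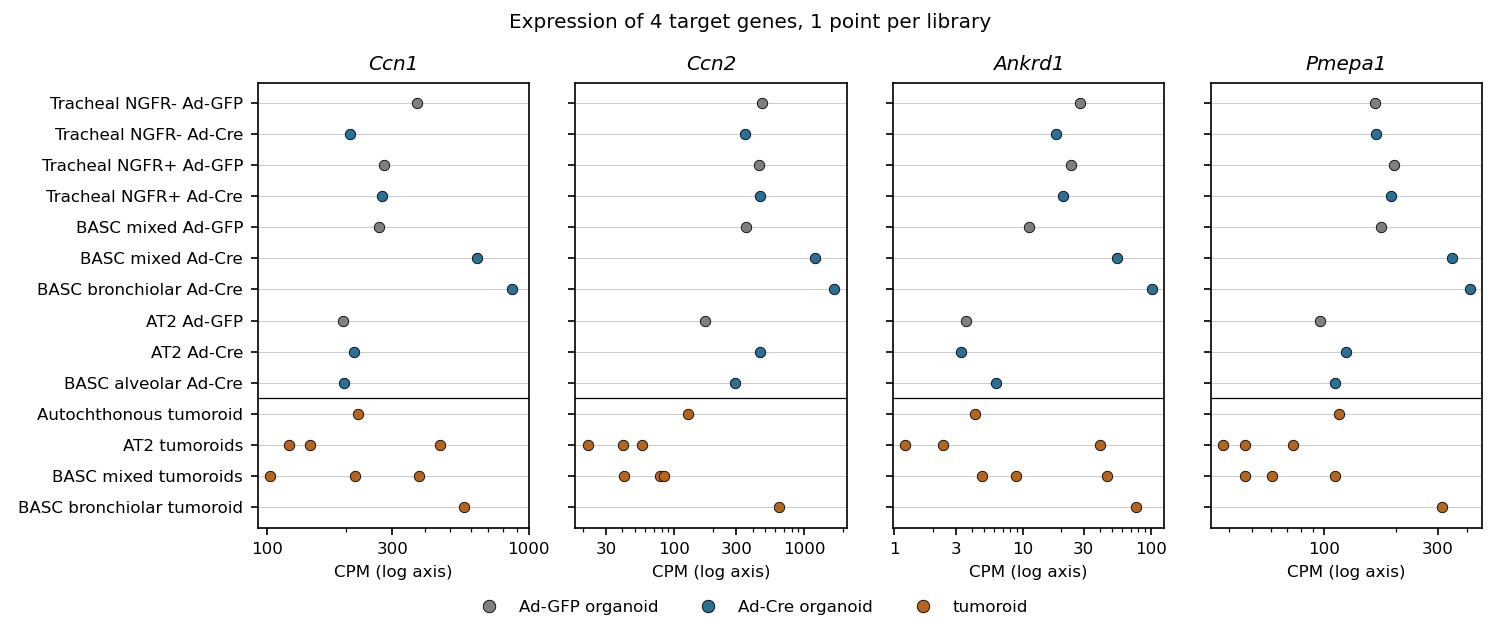
Expression of Ccn1, Ccn2, Ankrd1 and Pmepa1 as CPM on a log axis, with 1 point per library for Ad-GFP organoids, Ad-Cre organoids and tumoroids. The bronchiolar BASC Ad-Cre organoids are highest in all 4 genes, and Ccn2 in the AT2 and mixed BASC tumoroids (21.6 to 83.97 CPM) lies below every organoid library.

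Ankrd1 (ENSMUSG00000024803, chr19:36111961-36120099, minus strand), an ankyrin repeat protein best known from striated muscle and a direct YAP/TAZ target, was at 28.01 CPM (Ad-GFP) and 18.1 (Ad-Cre) in the NGFR-negative and 23.7 and 20.5 in the NGFR-positive tracheal organoids. Distal organoid levels were 3.62 CPM (Ad-GFP) and 3.34 (Ad-Cre) in AT2 organoids, 11.3 and 54.96 in mixed BASC organoids, 6.19 in alveolar BASC Ad-Cre organoids and 102 in bronchiolar BASC Ad-Cre organoids. Every airway library was above every alveolar library, and the mixed BASC organoids lay between with Ad-GFP and among the highest with Ad-Cre. The fitted log2 fold change, airway over alveolar, was 3.08 (SE 0.68, adjusted p = 0.00513), the largest among the members. Without the bronchiolar BASC library it was 2.31 (adjusted p = 0.000124), and with Ad-Cre libraries alone, 3 against 2, it was 3.24 and did not pass (adjusted p = 0.0586). Over 18 alternatives adjusted p was 4.15e-07 to 0.0586.

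In tumoroids Ankrd1 was at 1.22, 2.41 and 39.96 CPM in AT2 tumoroids 1 to 3, 8.96, 45.5 and 4.79 in mixed BASC tumoroids 1 to 3, 76.2 in the bronchiolar BASC tumoroid and 4.23 in the autochthonous tumoroid. Apart from the bronchiolar tumoroid, the high values were AT2 tumoroid 3 and mixed BASC tumoroid 2, whose fibroblast and smooth muscle marker sums were 5444 and 2286 TPM, the highest among the tumoroids. The part of those cells in Ankrd1 was not tested. On the log2 scale the fold change against distal Ad-Cre organoids was -0.65 (SE 1.13, adjusted p = 0.726), and it was 0.28 without the bronchiolar BASC organoids. Between AT2 and mixed BASC tumoroids it was -0.41 (SE 1.43, adjusted p = 1.000), but -3.44 (adjusted p = 0.793, range over alternatives 0.793 to 1.000) without AT2 tumoroid 3 and 1.14 without mixed BASC tumoroid 2, so its direction rested on these libraries. It was positive also without AT2 tumoroid 1 (0.13) and without AT2 tumoroid 2 (0.09). The matched virus differences in log2 CPM were -0.63, -0.21, -0.11 and 2.28: Ankrd1 was higher with Ad-Cre in mixed BASC organoids and lower in the other 3 populations, a mean of 0.33 ± 1.32 (SD, n = 4 populations).

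Ajuba (ENSMUSG00000022178, chr14:54567472-54577558, minus strand) is a LIM protein that binds and restrains the LATS kinases, and it is also induced by YAP. It was at 115 CPM (Ad-GFP) and 105 (Ad-Cre) in the NGFR-negative and 113 and 110.3 in the NGFR-positive tracheal organoids. Among distal organoids it was 22.3 CPM (Ad-GFP) and 38.4 (Ad-Cre) in AT2 organoids, 91.3 and 112 in mixed BASC organoids, 36.9 in alveolar BASC Ad-Cre organoids and 118 in bronchiolar BASC Ad-Cre organoids. Airway libraries lay in a tight band above all alveolar libraries, and the mixed BASC organoids were on the airway side. The log2 fold change was 1.75 (SE 0.17, adjusted p = 8.99e-05), past the threshold in all 18 alternatives (log2 fold change 1.52 to 1.87, adjusted p 6.39e-19 to 0.00266). In tumoroids Ajuba was at 58.8, 45.3 and 28.4 CPM in AT2 tumoroids 1 to 3, 57.4, 58.3 and 65.5 in mixed BASC tumoroids 1 to 3, 161 in the bronchiolar BASC tumoroid and 50.5 in the autochthonous tumoroid. The bronchiolar tumoroid was the highest of all 18 libraries, and the other tumoroids lay between the alveolar organoids and the airway organoids or at alveolar levels. Against distal Ad-Cre organoids the log2 fold change was -0.12 (SE 0.46, adjusted p = 0.879). The matched virus differences were -0.13, -0.03, 0.79 and 0.29, positive in both distal populations and negative in both tracheal ones, with a mean of 0.23 ± 0.41 (SD, n = 4 populations).

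Amotl2 (ENSMUSG00000032531, chr9:102716672-102733418, plus strand), an angiomotin-like protein that retains YAP in the cytoplasm and is itself a YAP target, varied little. Airway organoids had 158 to 207 CPM and alveolar organoids 137 to 149. These ranges did not overlap, but the difference did not pass, at a log2 fold change of 0.24 (SE 0.10) and an adjusted p of 0.0698. It passed in 1 of 18 alternatives, limma on log2(TPM + 1) (0.37, adjusted p = 0.0193, range over alternatives 0.0193 to 0.201). Transplant tumoroids had 112 to 200.1 CPM (median 159) against 137 to 208 in distal Ad-Cre organoids, with the fitted log2 fold change at -0.12 (SE 0.19, adjusted p = 0.6804). The autochthonous tumoroid, at 238 CPM, was the highest library. The matched virus differences were -0.20, -0.01, -0.12 and 0.55, a mean of 0.06 ± 0.34 (SD, n = 4 populations), with mixed BASC organoids the only population higher with Ad-Cre.

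Pmepa1 (ENSMUSG00000038400, chr2:173224458-173276533, minus strand), a membrane protein that keeps SMADs from the TGF-β receptor and promotes receptor breakdown, was at 164 CPM (Ad-GFP) and 166 (Ad-Cre) in the NGFR-negative and 196 and 191 in the NGFR-positive tracheal organoids. The distal organoids had 95.9 CPM (Ad-GFP) and 124 (Ad-Cre) in AT2 organoids, 173 and 345 in mixed BASC organoids, 111 in alveolar BASC Ad-Cre organoids and 409 in bronchiolar BASC Ad-Cre organoids. All airway libraries were above all alveolar libraries, and the bronchiolar and mixed BASC Ad-Cre organoids were the highest. The fitted log2 fold change, airway over alveolar, was 0.98 (SE 0.31, adjusted p = 0.0248). It was 0.64 (adjusted p = 0.000992) without the bronchiolar BASC library, and it did not pass without AT2 Ad-GFP (adjusted p = 0.0876), AT2 Ad-Cre (0.0533) or alveolar BASC Ad-Cre (0.0639), nor with Ad-Cre libraries alone (0.1096). Over 18 alternatives adjusted p was 0.000992 to 0.1096, past the threshold in 14.

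In tumoroids Pmepa1 was at 74.2, 37.7 and 46.4 CPM in AT2 tumoroids 1 to 3, 111, 46.8 and 60.4 in mixed BASC tumoroids 1 to 3, 313 in the bronchiolar BASC tumoroid and 116 in the autochthonous tumoroid. The AT2 and mixed BASC tumoroids were at or below 111 CPM, and the bronchiolar tumoroid was below only the mixed and bronchiolar BASC Ad-Cre organoids. On the log2 scale the fold change against distal Ad-Cre organoids was -1.28 (SE 0.60, adjusted p = 0.153) and did not pass, but it was -1.92 (adjusted p = 0.0104) without the bronchiolar tumoroid, the only alternative of 21 in which it passed (range 0.0104 to 0.382). The matched virus differences in log2 CPM were 0.02, -0.03, 0.37 and 0.99, near 0 in the trachea and positive in both distal populations, with a mean of 0.34 ± 0.47 (SD, n = 4 populations).

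Smad7 (ENSMUSG00000025880), the inhibitory SMAD that occupies the activated TGF-β receptor, was at 35.2 CPM (Ad-GFP) and 54.2 (Ad-Cre) in the NGFR-negative and 62.1 and 66.1 in the NGFR-positive tracheal organoids. Distal organoid levels were 45.01 CPM (Ad-GFP) and 58.9 (Ad-Cre) in AT2 organoids, 49.3 and 89.7 in mixed BASC organoids, 59.7 in alveolar BASC Ad-Cre organoids and 91.1 in bronchiolar BASC Ad-Cre organoids. Airway and alveolar ranges overlapped, and the log2 fold change was 0.13 (SE 0.26, adjusted p = 0.684), or -0.07 without the bronchiolar BASC library. The matched virus differences in log2 CPM were 0.62, 0.09, 0.39 and 0.86, a mean of 0.49 ± 0.33 (SD, n = 4 populations). Smad7 was the only member higher with Ad-Cre in all 4 populations and the only one whose mean difference was beyond its SD. Of 20104 genes, 996 (4.95%) were higher with Ad-Cre in all 4 populations, and since the contrast includes the values that chose the members, nothing is read from the count of 1 member. In the tracheal pairs alone Smad7 had a fitted log2 difference of 0.34 (SE 0.14, adjusted p = 0.9999). Transplant tumoroids had 40.96 to 95.7 CPM (median 56.03), overlapping the 58.9 to 91.1 of distal Ad-Cre organoids, with the fitted log2 fold change at -0.20 (SE 0.25, adjusted p = 0.607).

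**Figure D2:**
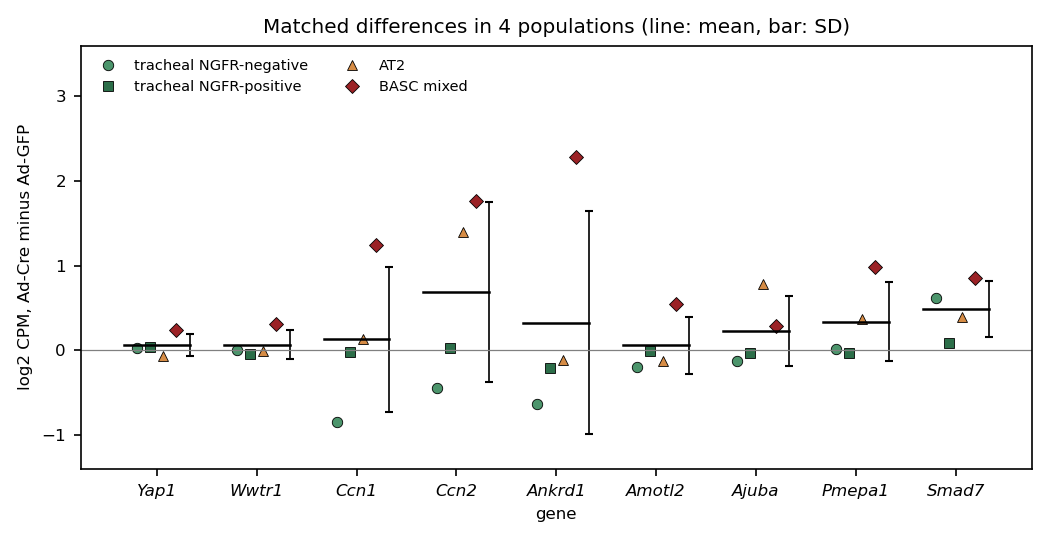
Difference in log2 CPM, Ad-Cre minus Ad-GFP, for each member in the 4 populations with both viruses, with 1 point per population, a line at the mean and a bar of 1 SD. Ccn2 is highest in mixed BASC organoids (1.77) and lowest in NGFR-negative tracheal organoids (-0.44), and Smad7 is above 0 in all 4.

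Across the matched pairs, the mixed BASC organoids had the largest Ad-Cre minus Ad-GFP difference for all members but Ajuba, whose largest was in AT2 organoids. In AT2 organoids, Ccn2 (1.40), Ajuba (0.79), Smad7 (0.39), Pmepa1 (0.37) and Ccn1 (0.13) had positive and Yap1, Wwtr1, Ankrd1 and Amotl2 slightly negative log2 differences. Both distal pairs also differed in marker sums, given here in TPM with Ad-GFP first and Ad-Cre second. In the mixed BASC pair they were 1064 and 2264 (fibroblast and smooth muscle), 1108 and 4053 (AT2), 1503 and 1806 (AT1), 22006 and 13872 (club), 2802 and 1806 (basal), 2209.9 and 690.1 (ciliated), 394 and 638 (leukocyte), 4.39 and 9.56 (endothelial) and 3269 and 4349.8 (epithelial), so the AT2 and fibroblast sums were higher and the club, basal and ciliated sums lower with Ad-Cre. In the AT2 pair they were 4235 and 4117 (fibroblast and smooth muscle), 93515 and 84054 (AT2), 2717 and 3625 (AT1), 389 and 1817 (club), 9.14 and 13.2 (basal), 248 and 232 (ciliated), 12289.7 and 8557 (leukocyte), 161 and 118 (endothelial) and 1246 and 1508 (epithelial), so the fibroblast sum was nearly level, the club and AT1 sums were higher and the leukocyte sum was lower with Ad-Cre. In the NGFR-negative tracheal pair the AT2 sum was 193 and 459 and the leukocyte sum 194 and 361, while the other sums were lower with Ad-Cre. In the NGFR-positive pair the AT2 sum was 194 and 217 and the leukocyte sum 232 and 246. No marker gene was called in the tracheal pairs. Lyz2 is in both the leukocyte and the AT2 list. In the AT2 pair it was at 12264 and 8529.8 TPM, most of the leukocyte sums. The leukocyte sums of these pairs are therefore not read as differences in leukocytes. The part of these markers in the members' differences was not tested. In the tracheal pairs, Ccn1 (log2 difference -0.44, SE 0.18) and Ankrd1 (-0.42, SE 0.14) were lower with Ad-Cre without passing (adjusted p = 0.9999 for Ccn1 and 0.9999 for Ankrd1), Yap1 and Smad7 had positive and the other 7 members negative fitted differences, and none went beyond -0.44 or 0.34.

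Non-overlapping CPM ranges between airway and alveolar organoids were seen for 5 members (Yap1, Ankrd1, Amotl2, Ajuba and Pmepa1, all higher in airway organoids), and for 55.2% of all 18362 genes. Members called numbered 3 (Yap1, Ankrd1 and Ajuba) without AT2 Ad-GFP (beside 8892 of 18641 genes), without AT2 Ad-Cre (8992 of 18613) or without alveolar BASC Ad-Cre (9723 of 18921). They numbered 4 with both NGFR-negative tracheal libraries left out (8637 of 18015 genes) and 2 (Yap1 and Ajuba) with Ad-Cre libraries alone (5374 of 18478 genes), against 10725 of 18362 genes with all 8 libraries, so fewer of all genes passed in these fits too. Between transplant tumoroids and distal Ad-Cre organoids the ranges of all 9 members overlapped, against 15.5% of 16139 genes whose ranges did not. The fitted log2 fold changes there, Ccn2 among them, had a median of -0.24 against 0.00 over all genes, and the signs of Yap1, Wwtr1, Ccn1, Ankrd1, Amotl2, Ajuba and Smad7 depended on the alternative. The number of genes called went from 3167 to 1973 without the bronchiolar BASC Ad-Cre organoids, and without the bronchiolar BASC tumoroid 2 members passed, Pmepa1 and Ccn2, the latter not read as a test, beside 3716 of 15965 genes. The bronchiolar tumoroid carried airway markers, with Scgb1a1 at 8473 and Sox2 at 115 TPM, and it was the highest tumoroid for Ccn1, Ccn2, Ankrd1, Ajuba, Pmepa1 and Smad7.

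Between AT2 and mixed BASC tumoroids the members' fitted log2 fold changes lay between -0.77 (Ccn2, SE 0.42) and 0.23 (Wwtr1, SE 0.25), 3 positive and 6 negative. Ccn2 was at 21.6 to 56.3 CPM in the AT2 and 41.2 to 83.97 CPM in the mixed BASC tumoroids, and these ranges overlapped. Leaving out AT2 tumoroid 3, the library low in Epcam, moved the number of all genes at an unadjusted p under 0.05 from 144 to 972, with 0 past the adjusted threshold in edgeR. A p that misses the threshold does not show that the members were alike in the 2 origins.

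**Figure D3:**
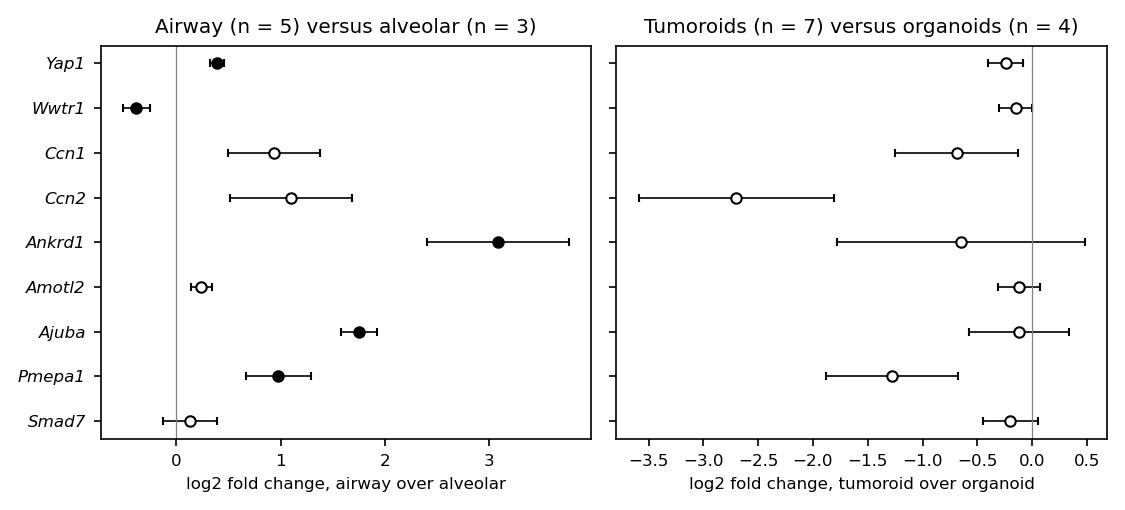
Fitted log2 fold change with its standard error for each member, airway over alveolar organoids (n = 5 and 3) and transplant tumoroids over distal Ad-Cre organoids (n = 7 and 4). Filled points passed an adjusted p of 0.05: Yap1, Wwtr1, Ankrd1, Ajuba and Pmepa1 in the airway comparison and no member in the tumoroid comparison. For Ccn2 the points give fold changes only and are not read as tests, since its distal values chose the members.

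Markers of the support cells differed between airway and alveolar organoids. Of 14 fibroblast and smooth muscle genes, 13 were at 1 TPM or more in 17 libraries and 12 in AT2 tumoroid 2, Col1a1 was the most abundant by the mean over all 18 libraries (Col3a1 in the 3 alveolar organoid libraries and Dcn in mixed BASC tumoroid 2), and Tcf21 was at 0 in 14 libraries. Their summed TPM was 1101, 1034, 1008 and 1033 in the tracheal organoids, 1843 in the bronchiolar BASC organoids, 4235 and 4117 in AT2 and 2430.1 in alveolar BASC organoids. In tumoroids it was 426, 223 and 5444 (AT2), 1303, 2286 and 438 (mixed BASC), 961 (bronchiolar) and 1562 (autochthonous). In airway against alveolar organoids 0 of 13 tested genes of this list were higher and 11 lower (median log2 fold change -1.93), and in tumoroids against organoids 0 and 2 (median -0.62). Yap1, Ankrd1, Ajuba and Pmepa1 were thus higher where the fibroblast markers were lower, Wwtr1 was lower together with them, and the markers' part in the members' levels was not tested. Of 10 endothelial genes 1 to 4 reached 1 TPM in a library, Esam was the most abundant by the mean over all libraries (Egfl7 in the tracheal and the mixed BASC Ad-GFP organoids), Cdh5 was below 0.1 TPM throughout and Emcn and Cldn5 were at 0 in most libraries. The endothelial sums were 3.67 to 10.4 TPM in airway organoids, 118 to 161 in alveolar organoids and 16.5 to 152 in tumoroids. In the same order, Esam was at 0.270 to 5.86, 101 to 144 and 8.85 to 142 TPM. Egfl7 was at 2.80 to 3.94, 15.3 to 16.3 and 6.13 to 41.2, and Pecam1 at 0.140 to 0.260, 0.270 to 0.490 and 0.280 to 4.55. The alveolar sums were thus mostly Esam, and the sums are not read as amounts of endothelial cells. Leukocyte sums were 194 to 446, 7142 to 12289.7 and 128 to 8304 TPM, with Lyz2, which AT2 cells express as well, the most abundant gene in every library, while Ptprc was below 1 TPM throughout. The epithelial lists had AT2 sums of 193 to 3394 TPM in airway and 83062 to 93515 in alveolar organoids, AT1 sums of 1722 to 1935 and 2717 to 4187, club sums of 14533 to 22342 and 389 to 2349.6, basal sums of 880.3 to 4076 and 9.14 to 135, ciliated sums of 456 to 1316 and 232 to 324, and general epithelial sums of 3201 to 5604 and 1246 to 1646. By the mean over all 18 libraries their most abundant genes were Sftpc, Ager, Cbr2, Krt5, Tubb4b and Krt8 in that order. Other genes led in some libraries, and the exceptions given here are not a full list. In the tracheal organoids the AT2 list was led by Lyz2 and the AT1 list by Aqp5 (1383 to 1513 TPM) with Ager at 3.06 to 3.94. In the bronchiolar BASC organoids the AT2 list was led by Sftpb, the AT1 list by Aqp5 and the club list by Scgb1a1. The mixed BASC organoids had Sftpb (432 and 1581 TPM) above Sftpc (228 and 1525 TPM), and the bronchiolar tumoroid had Krt14 (1316 TPM) above Krt5 (103 TPM). The club cell gene Scgb1a1 was nonetheless at only 7.03 to 18.4 TPM in the tracheal organoids. In tumoroids against organoids, 2 of 4 ciliated genes were called lower (median log2 fold change -1.59), beside 19.6% of all genes called. No gene of the other epithelial lists was called, with medians of -1.78 (basal), -0.48 (club), -0.17 (general epithelial), -0.12 (AT1) and 0.56 (AT2). The part of these lists in the members' levels was not tested.

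The wider pathways were described by lists that overlap the members and each other, so the same gene can be counted in several lists. Among genes called in tumoroids against organoids, Lats2 is in the YAP/TAZ target and kinase lists. Skil is in the SMAD and TGF-β target lists, and Thbs1 in the ligand and TGF-β target lists. The counts of called genes stand beside 58.4% of all genes called in airway against alveolar organoids and 19.6% in tumoroids against organoids. In the 25 YAP/TAZ target genes, 5 of which are members, 11 of 25 tested genes were higher and 6 lower (median log2 fold change 0.94) in airway organoids, beside 0.06 over all genes tested. The largest called rise was the member Ankrd1 itself and the largest fall was Foxf2, a mesenchymal forkhead factor, at 1.68 ± 0.905 CPM (SD, n = 5) against 11.1 ± 2.41 (n = 3) (log2 fold change -2.76, SE 0.37, adjusted p = 0.000389). In tumoroids 0 of 25 tested genes were higher and 2 lower (median log2 fold change -0.61), beside 0.00 over all genes, and the larger of the called falls was F3, the tissue factor gene, at 214 ± 219 CPM (SD, n = 7) against 1222 ± 965 (n = 4) (log2 fold change -2.46, SE 0.72, adjusted p = 0.0340). Among 18 Hippo kinase core genes, which act upstream of Yap1 and Wwtr1, 2 higher and 4 lower of 18 (median -0.13) were called in airway organoids and 0 higher and 5 lower of 18 (median -0.10) in tumoroids. Amot, an angiomotin like Amotl2, rose in airway organoids (log2 fold change 1.42, SE 0.19, adjusted p = 0.000371) and the kinase gene Taok3 fell (log2 fold change -1.33, SE 0.10, adjusted p = 2.59e-05), while in tumoroids the kinase gene Lats1 fell from 119 ± 8.34 to 60.1 ± 12.03 CPM (SD, n = 4 and 7, log2 fold change -0.94, SE 0.15, adjusted p = 0.00266). Among 7 TEAD and VGLL factors, the DNA-binding partners of YAP and TAZ and their competitors, 2 higher and 1 lower of 6 (median 0.05) were called in airway organoids and 2 higher and 0 lower of 6 (median 0.23) in tumoroids. Tead3 rose (log2 fold change 0.57, SE 0.11, adjusted p = 0.00231) and Vgll3 fell (log2 fold change -1.06, SE 0.27, adjusted p = 0.00903) in airway organoids, and Tead2 rose in tumoroids (log2 fold change 1.48, SE 0.38, adjusted p = 0.01899). These counts depended on the processing and on the libraries used. Over the alternatives the genes called ran from 13 to 19 (targets), 4 to 12 (kinases) and 0 to 6 (TEAD and VGLL) in airway organoids and from 1 to 8, 2 to 8 and 0 to 3 in tumoroids. All genes called ran from 5374 of 18478 to 12150 of 18135 in airway organoids and from 829 of 16160 to 7548 of 16452 in tumoroids. The ranges of the lists are therefore not read as a trait of these lists.

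On the TGF-β side, again beside 58.4% and 19.6% of all genes, 4 higher and 5 lower of 11 (median -0.05) of the ligand and activator genes were called in airway organoids and 0 higher and 2 lower of 11 (median -0.78) in tumoroids. Itgb6 and Itgb8 encode integrin subunits that release active TGF-β, and they moved in opposite directions: Itgb6 rose (log2 fold change 1.80, SE 0.35, adjusted p = 0.00263) and Itgb8 fell (log2 fold change -2.20, SE 0.42, adjusted p = 0.00256) in airway organoids. In tumoroids Thbs1, which encodes the activator thrombospondin, was at 488 ± 257 CPM (SD, n = 7) against 2277 ± 589 (n = 4) and fell (log2 fold change -2.19, SE 0.37, adjusted p = 0.003297). Of the receptor list, 0 higher and 4 lower of 6 (median -1.16) were called in airway organoids, with Tgfbr3 at 15.3 ± 5.47 CPM (SD, n = 5) against 173 ± 82.2 (n = 3) (log2 fold change -3.55, SE 0.34, adjusted p = 8.03e-05), and 0 higher and 1 lower of 6 (median 0.16) in tumoroids, the called gene being Tgfbr1 (log2 fold change -0.77, SE 0.20, adjusted p = 0.0217). Of the SMAD list, which includes Smad7, 4 higher and 4 lower of 10 (median 0.00) were called in airway organoids, where Tgif1 rose (log2 fold change 1.34, SE 0.19, adjusted p = 0.000606) and Ski fell (log2 fold change -0.66, SE 0.19, adjusted p = 0.0156), and 0 higher and 2 lower of 10 (median -0.24) in tumoroids, with Skil, a feedback repressor like Smad7, falling (log2 fold change -1.57, SE 0.29, adjusted p = 0.00474). Among 20 TGF-β target genes, 3 of them members, 5 higher and 9 lower of 20 (median -0.06) were called in airway organoids and 0 higher and 3 lower of 20 (median -0.51) in tumoroids. Over the alternatives the genes called ran from 3 to 10 (ligands), 4 to 6 (receptors), 4 to 9 (SMADs) and 10 to 15 (targets) in airway organoids and from 0 to 6, 0 to 1, 0 to 3 and 0 to 9 in tumoroids. These ranges, too, stand beside those of all genes called that were given above. The fibroblast markers were lower in airway organoids too, as given above, and their part in these lists was not tested. In AT2 against mixed BASC tumoroids and in the tracheal pairs, edgeR, DESeq2 and limma each called 0 genes of the 7 lists. At an unadjusted p under 0.05, the YAP/TAZ target list had 1 gene in the tumoroids and 4 in the tracheal pairs, the ligand list 0 and 2, the SMAD list 0 and 1, the TGF-β target list 0 and 1, and the kinase, TEAD and receptor lists 0 in each. In the tracheal pairs the gene of the SMAD and of the TGF-β target list was the same, the member Smad7. Tgfb2 was counted in both the YAP/TAZ target and the ligand list.

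Over the 10 organoid libraries, the genes whose log2 CPM followed Ccn2 most closely among 10560 genes examined were Pdgfb (Pearson r 0.98), Coro6 (0.97), Itgb3 (0.97), Mfge8 (0.95) and St6gal1 (0.95). For Pmepa1 they were Stk38l (0.99), Akr1b3, Schip1, Kalrn and Arl4c (0.98 each). Among the members, Ccn2 went with Pmepa1 (0.94), Ccn1 (0.93), Ankrd1 (0.84) and Amotl2 (0.83), less closely with Smad7 (0.75), Yap1 (0.67) and Ajuba (0.64), and hardly with Wwtr1 (0.14). These libraries share populations and viruses, and the bronchiolar and mixed BASC Ad-Cre libraries are the highest for Ccn2 and Pmepa1, so the correlations are a description of 10 libraries.

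Because Ccn1 and Ajuba are direct YAP/TAZ targets that differ in pattern, Ajuba separating airway from alveolar organoids and Ccn1 not, their promoters are shown: 250 bases upstream of the start in RefSeq annotation of build GRCm38.p6. Of 9 members, 6 were matched to promoter entries (7 entries, 2 for Wwtr1). Ccn2, Pmepa1 and Smad7 were not analysed here. The letters searched on both strands were GGAATG, the core bound by TEAD factors (CATTCC on the other strand), CAGACA, a SMAD box (TGTCTG), and TGANTCA, the AP-1 site, and no match overlapped another. GGAATG was in all 7 entries (Yap1, Wwtr1, Ccn1, Ankrd1, Amotl2 and Ajuba), against 12.6% of 32851 promoters of the same length. Ankrd1 and Ajuba held 2 each. The 2 Wwtr1 entries overlap, and their match is the same site. Ccn1, Ankrd1, Amotl2 and Ajuba are in the set as YAP/TAZ target genes, and YAP and TAZ act through TEAD factors, so nothing is read from this share. Annotated untranslated exon sequence of GENCODE vM21 covers all 250 bases of the Ankrd1 entry, 136 of the Amotl2 entry and 30 of 1 Wwtr1 entry, so for these the letters lie wholly or partly in transcribed sequence. CAGACA was in Ajuba and in the Ankrd1 entry just described, against 17.1% of all promoters, and TGANTCA in no member against 6.75%. The sequences run 5′ to 3′ along each gene, both on the minus strand, at chr3:145649986-145650235 (Ccn1) and chr14:54577662-54577911 (Ajuba), ending next to the start, and capitals mark the matches, which are a description of letters and not binding sites. In Ccn1 the match begins 103 bases upstream of the start, and in Ajuba the TEAD matches begin 186 and 164 and the SMAD match 57 bases upstream.
Ccn1 promoter: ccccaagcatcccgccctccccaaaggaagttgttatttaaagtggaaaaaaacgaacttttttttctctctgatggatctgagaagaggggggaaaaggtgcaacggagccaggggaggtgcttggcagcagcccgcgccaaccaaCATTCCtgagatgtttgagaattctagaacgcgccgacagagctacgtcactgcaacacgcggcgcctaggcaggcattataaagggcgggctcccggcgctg
Ajuba promoter: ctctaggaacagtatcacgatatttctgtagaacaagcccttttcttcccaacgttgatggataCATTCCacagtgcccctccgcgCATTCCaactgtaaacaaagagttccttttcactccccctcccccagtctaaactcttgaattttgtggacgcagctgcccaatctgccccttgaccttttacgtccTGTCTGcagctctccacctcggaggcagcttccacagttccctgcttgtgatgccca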

How the data were processed

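RNA of 10 organoid and 8 tumoroid libraries was sequenced. The deposited expected count of each gene was made by the authors with Trimmomatic 0.39, STAR 2.6.1d and RSEM 1.3.2 on GRCm38 (names and versions from the submitters' processing notes), which shares reads of uncertain origin between genes. The deposited TPM values come from the same RSEM run and are scaled by transcript length to the same total in each library. Of 46603 gene identifiers, 46091 were matched to symbols by GENCODE vM21 and 512 were not.

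Expected counts were rounded to whole numbers and tested with edgeR 4.0.16 (R 4.3.3; filterByExpr by group, TMM scaling, quasi-likelihood F test, 2-sided), with Benjamini-Hochberg adjustment over all genes tested and a threshold of 0.05. Groups came from the labels. Mixed BASC organoids entered neither side of the airway comparison, and the autochthonous tumoroid entered only the alternative of all tumoroids against all organoids. The biological coefficient of variation was 0.302 for airway against alveolar organoids, 0.555 for tumoroids against organoids, 0.539 between tumoroid origins and 0.122 in the tracheal pairs. CPM use TMM library sizes over 20104 genes passing the filter, and log2 CPM a prior count of 2. Replicate tumoroids differed beyond sampling noise (chi-square per degree of freedom 97.6 to 356), as did every other pair of libraries. DESeq2 1.42.0, limma 3.58.1 on log2(TPM + 1), other filters, scalings, covariates and sample sets, and leaving out each library were alternatives. The fits were checked on simulated data.

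The members and lists were chosen with earlier results of these data known. Named genes are the 9 members; for the pathway lists called genes with the largest rise or fall in a comparison; for each marker list the most abundant gene and those at 0, and the 5 genes with the highest Pearson r with Ccn2 and with Pmepa1 in organoids among genes with a mean log2 CPM of at least 3. A few further marker and pathway genes (Ngfr, Sox2, Epcam, Scgb1a1, Cdh5 and Ptprc) were named after their values were seen. Promoters are from RefSeq.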

Additional observations from a re-analysis of the deposited data

Results flagged for a closer look

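In 6 of 36 groups of a member's log2 CPM, 1 library lay farther from the rest than Dixon's 95% limit allows, where chance gives about 1 in 20 groups. The groups share libraries and the members move together in part, so they are not separate, and over all 20104 genes passing the filter the share was 6.05% in tracheal, 17.9% in airway, 3.67% in distal Ad-Cre organoids and 8.77% in transplant tumoroids. Of these 6 groups, 4 were the bronchiolar BASC Ad-Cre organoids among the 5 airway libraries, at 7.67 for Wwtr1, 10.73 for Ccn2, 6.67 for Ankrd1 and 8.68 for Pmepa1, each the highest of its group. Ccn2 was also at 8.45, the lowest, in NGFR-negative Ad-Cre organoids among the tracheal libraries, and at 9.33, the highest, in the bronchiolar tumoroid among the transplant tumoroids.

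The matched Ad-Cre minus Ad-GFP difference was positive in both distal populations and negative in both tracheal ones for Ccn1 and Ajuba, though close to 0 in the NGFR-positive organoids (-0.02 and -0.03). Of all genes passing the filter 4.999% showed this pattern, and since the contrast holds the values that chose the members, nothing is read from it. The mean distal exceeded the mean tracheal difference by 1.12 (Ccn1) and 0.62 (Ajuba) on the log2 scale, and this difference was not tested.

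The autochthonous tumoroid, which entered only the alternative of all tumoroids against all organoids, was above every Ad-GFP organoid for Amotl2 (238 CPM) and Smad7 (82.4 CPM), and it was sequenced on another platform than they were.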

How the results depend on the processing

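Of the members' log2 fold changes under the alternatives, 144 of 162 kept their direction and side of the threshold in airway against alveolar organoids (15 no longer passed, 1 newly passed, 2 changed sign), 167 of 189 in tumoroids against organoids (9 newly passed, 13 changed sign), 98 of 108 between tumoroid origins (10 changed sign) and 54 of 54 in the tracheal pairs. The sign changes were all of values that had not passed. All 72 of 72 recomputed mean matched differences stayed within 1 SD. Of 399 counts of list genes, 328 stayed within 1.5 times and 71 moved further, 10 of 126 in airway against alveolar organoids, 61 of 147 in tumoroids against organoids and none in the other comparisons.

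In airway against alveolar organoids, Ad-Cre libraries alone gave 5374 genes and 2 members. Leaving out each library gave 8892 to 12150 genes, 3 to 5 members and a log2 fold change for Smad7 of -0.07 to 0.28, which was -0.07 with tracheal organoids as the only airway side. In tumoroids against organoids, 7548 genes were called with all tumoroids against all organoids, 1538 with alveolar samples alone, 1157 with population as a term and 829 without the AT2 samples. Leaving out each library gave 1973 to 3716 genes and 0 to 2 members. Members called were 2 (Yap1 and Ccn2) with all against all, and 1 (Ccn2) with alveolar samples alone, a minimum of 10 counts in every library, DESeq2, limma or population as a term, and the calls of Ccn2 are not read as tests since its distal values chose the members. With alveolar samples alone, log2 fold changes were 0.00 for Yap1, 0.25 for Ccn1, 1.86 for Ankrd1, 0.13 for Amotl2 and 0.51 for Ajuba. With all against all they were 0.04 for Wwtr1, 0.03 for Amotl2 and 0.13 for Smad7. With tumoroids of the same number and origin summed, which kept the bronchiolar tumoroid separate, the value was 0.01 for Ajuba. Leaving out each library gave -1.20 to 0.28 for Ankrd1 and -0.48 to 0.15 for Ajuba.

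Between AT2 and mixed BASC tumoroids, DESeq2 called 7 genes, and limma gave Ccn1 -0.16 around a median of -0.13 over all genes. Leaving out each library gave -0.02 to 0.34 for Yap1, -0.81 to 0.60 for Ccn1, -3.44 to 1.14 for Ankrd1, -0.41 to 0.07 for Amotl2 and -0.40 to 0.09 for Smad7. In the tracheal pairs, DESeq2 called 11 genes, limma 2 and the fit with no count filter 105. Leaving out a tracheal library leaves no residual degrees of freedom beside the block, and none was fitted. The cause of these changes was not tested, beyond the smaller number of libraries where samples were left out.

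The limits are these. Each organoid condition was 1 library. Platform and depth cannot be told apart from state. Support cells share the cultures, and their part in each member's level was not tested. With 3 tumoroids a group and AT2 tumoroid 3 apart from AT2 tumoroids 1 and 2, a difference that did not pass is not shown to be absent. The same holds for the tracheal pairs, with 2 libraries for each virus. RNA levels say nothing of where YAP, TAZ or SMAD proteins were in the cell, which was not analysed here.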
